A study of Mus musculus with 6 samples.

Results

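Endoneurial fibroblasts of the adult mouse sciatic nerve are described here from single-cell RNA sequencing at postnatal day 60 (P60). A cell was counted as endoneurial when it had 500 to 5000 detected genes, at least 5 unique molecular identifiers (UMIs, 1 per captured RNA molecule) of Col1a2 and Dcn together, at least 2 UMIs of Sox9, Osr2, Meox1 and Cdkn2b together, at most 1 of Itgb4, Cldn1 and Msln, at most 3 of Pi16 and Clec3b, and none of Sox10, Pecam1 or Ptprc. The rule found 413 cells, 116, 139 and 158 in P60 replicates 1, 2 and 3, among 12602 P60 cells and 24337 cells in all 6 libraries. They were set against the other 8149 P60 cells with at least 5 UMIs of Col1a2 and Dcn, called other fibroblasts below.

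A peripheral nerve is wrapped in connective tissue at nested levels. The epineurium is the outer sheath, the perineurium is a barrier of flattened cells around each fascicle, and the endoneurium is the loose collagenous space inside it in which axons, Schwann cells and capillaries lie. Endoneurial fibroblasts live in that space and make much of its collagen, and a neural crest origin has been described for them.

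The series held 3 independent Chromium runs of sciatic nerve at postnatal day 1 (P1) and 3 at P60. Mice were of the genotype P0Cre-/+ : ReYFP Tg/+ : βAct-DsRed Tg/+ on a C57bl/6J background, each suspension pooled males and females 1:1, and living cells were sorted by their ubiquitous DsRed; no group carried another treatment or allele. P0Cre marks Schwann cells with eYFP, and at P1 a part of the DsRed-eYFP double positive cells was removed in the sort, so shares of all cells cannot be compared between ages. Since animals were pooled, the spread between libraries is that between pooled runs, and the p-values between ages measure it alone. Those within P60 and of the interaction, fitted with the library as a block, measure how far the difference between cell groups varied between libraries. Values are given in the order of replicates 1, 2 and 3, as UMIs of a gene summed over the cells of a group in a library and divided by that group's total, scaled to CPM, counts per 1000000.

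The 6 libraries held 20203440 to 30334608 UMIs and shared 13 to 32 cell barcodes with one another, but no endoneurial barcode of one P60 library was an endoneurial barcode of another. Median depth of the endoneurial cells was 3761.5, 3395 and 2671 UMIs per cell, against 6270, 5594 and 4021.5 in the other fibroblasts, so they were the shallower cells in each library. P60 replicate 3 had the lowest depth in both groups. The median mitochondrial share was 3.06, 3.46 and 3.74% in endoneurial cells and 2.76, 3.07 and 3.67% in the others. The part that depth had in the differences below was not tested, but the comparisons were repeated on cells thinned to 2000 UMIs. No doublet caller was run, and the ceiling of 5000 genes was the one limit on cells of very high content.

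The rule can be met by several routes, and the cells used them unevenly. Osr2, a zinc finger transcription factor, had at least 1 UMI in 316 of the 413 cells (76.5%), Sox9, a transcription factor of cartilage and neural crest derivatives, in 226 (54.7%), the cell cycle inhibitor Cdkn2b in 178 (43.1%) and the homeobox gene Meox1 in 140 (33.9%). In 106 cells 1 of the 4 genes gave all the UMIs, in 188 cells 2 did, in 98 cells 3 and in 21 cells all 4. There were 187 cells (45.3%) with no UMI of Sox9. In these, Cpxm2 stood at 291 CPM over the summed cells, against 269 CPM in the cells that had Sox9. Cells with 1 of the 4 genes alone differed more. Cpxm2 was at 105 CPM in the 25 cells with only Sox9 and at 330 CPM in the 63 with only Osr2. It was at 19.2 CPM in the 12 cells with only Meox1 and at 430 CPM in the 6 with only Cdkn2b.

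These values chose the cells and are a description only. Sox9 was at 221, 217 and 420 CPM in endoneurial cells and at 21.5, 22.7 and 37.0 CPM in other fibroblasts. For Osr2 the values were 700, 629 and 457 CPM against 66.6, 49.5 and 33.5 CPM. Meox1 stood at 183, 166 and 169 CPM against 13.3, 10.2 and 8.92 CPM, and Cdkn2b at 194, 190 and 213 CPM against 13.7, 14.6 and 13.3 CPM. Replicate 3 had the highest Sox9 and the lowest Osr2. At the thresholds, 105 cells had exactly 2 UMIs of the 4 genes, with 200 CPM of Cpxm2 and 910 CPM of Myoc, and 105 cells that met every other condition had 1 UMI, with 188 and 880 CPM. The 43 cells at the limit of 1 UMI of Itgb4, Cldn1 and Msln had 208 CPM of Cpxm2 and 1242 CPM of Myoc, and the 24 cells just outside had 64.5 and 475 CPM. The 77 cells at 3 UMIs of Pi16 and Clec3b had 339 CPM of Cpxm2, and the 58 cells just outside had 302 CPM. The 4-gene and Pi16 limits therefore cut through cells with like levels of Cpxm2, and the perineurial limit did not. Col1a2 and Dcn did not bind, since the lowest member of each library had 69, 6 and 14 UMIs of them and no cell fell out at 4 UMIs. One UMI of Sox10, Pecam1 or Ptprc kept out 1, 12 and 6 cells.

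Endoneurial cells were 4.57% (exact binomial 95% interval 3.79 to 5.46), 4.30% (3.63 to 5.06) and 5.65% (4.82 to 6.57) of P60 fibroblasts in the 3 libraries, a mean of 4.84% ± 0.713 (SD, n = 3). The intervals cover counting error only. At P1 the same conditions were met by 1641 cells, or 18.5, 16.8 and 18.5% of cells with Col1a2 and Dcn, a mean of 17.9% ± 0.985 (SD, n = 3). The P1 libraries were all above the P60 ones. P1 cells were deeper, with medians of 9628, 8863 and 9303 UMIs in cells that met the rule. The rule sets minimum and maximum numbers of raw UMIs, and the difference in share was not tested.

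The label was checked on Cpxm2 and Myoc, 2 given markers that the rule did not use but that were chosen with results of these data known, so the check is not independent of them. Cpxm2, a carboxypeptidase-like secreted protein (chromosome 7, 132032687 to 132154739, minus strand, GRCm38, where the annotation also places Fgfr2 on the same strand over a part), was at 352, 307 and 177 CPM in endoneurial cells and at 88.8, 81.8 and 49.1 CPM in other fibroblasts. Every endoneurial value was above every other one, and the log2 difference was 1.97 ± 0.11 (SE; edgeR's quasi-likelihood test, adjusted p = 3.7e-16). Cpxm2 was also above the perineurial cells by 1.01 ± 0.11 and above the epineurial cells by 2.64 ± 0.11 on the log2 scale. Myoc, which encodes the secreted glycoprotein myocilin (chromosome 1, 162639155 to 162649693, plus strand), was at 1520, 1309 and 670 CPM, against 46.5, 46.8 and 23.7 CPM in perineurial and 1403, 1453 and 981 CPM in epineurial cells. It separated endoneurial from perineurial cells by 4.96 ± 0.10, while against epineurial cells the difference was -0.23 ± 0.09 (edgeR adjusted p = 0.061). Without P60 replicate 1 that difference was -0.42 and passed the test, so Myoc did not stand higher in endoneurial than in epineurial cells.

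Perineurial and epineurial cells were chosen by the same genes on the other side of their limits, 1688 cells with at least 2 UMIs of Itgb4, Cldn1 and Msln and 4397 cells with at least 4 UMIs of Pi16 and Clec3b, and the remaining 2064 other fibroblasts met neither. Pdgfra, a receptor of mesenchymal cells, was at 554, 428 and 685 CPM in endoneurial cells, higher than in other fibroblasts by 1.45 ± 0.09. The surface glycoprotein Cd34 was at 902, 807 and 737 CPM, higher than in other fibroblasts by 0.50 ± 0.07 and lower than in epineurial cells by a log2 difference of -0.39 ± 0.08. Both Cd34 calls were lost when the library was left out of the model (edgeR adjusted p = 0.11 and 0.13), as was that of Myoc against other fibroblasts (adjusted p = 0.085).

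By summed level, markers of other cells were low, with exceptions among single genes. The 12 Schwann cell markers summed to 569 to 678 CPM in endoneurial cells and to 28501 to 61459 CPM in the Schwann cells of these libraries, with the myelin gene Prx at 0. Of these 12, 7 were lower and 2 higher than in other fibroblasts. Cdh19, a cadherin of Schwann cells and their precursors, was at 52.7, 44.9 and 68.9 CPM against 6.77, 7.27 and 11.8 CPM (2.74 ± 0.24; edgeR adjusted p = 3.0e-11) and was also higher than in both sheaths, and the sodium channel gene Scn7a was higher by 0.61 ± 0.15. Whether Schwann cell RNA had a part in these was not tested. Immune markers summed to 77.2 to 158 CPM, against 23000 to 25933 CPM in immune cells. Endothelial markers came to 52.2 to 154 CPM and mural markers to 238 to 330 CPM. The 9 perineurial markers outside the rule summed to 226 to 352 CPM, against 4207 to 4449 CPM in perineurial cells, with 8 lower than in other fibroblasts and 1 higher, Tenm2 (0.69 ± 0.14). The 12 epineurial markers summed to 2394 to 2576 CPM, against 13152 to 14139 CPM in epineurial cells. The other fibroblasts carried more of every one of these lists, among them 468 to 739 CPM of immune and 482 to 920 CPM of endothelial markers. The rule barred Sox10, Pecam1 and Ptprc and capped perineurial and epineurial genes in endoneurial cells. It set no such limits on the other fibroblasts, so part of these gaps came with the choice of cells. Against epineurial cells, 1 of 8 endothelial and 4 of 9 immune markers tested were lower and none was higher.

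Against the other fibroblasts, 3756 of 13336 genes tested passed an adjusted p of 0.05 (28.2%), 1562 higher (11.7%) and 2194 lower (16.5%) in endoneurial cells. The median log2 difference of all genes was -0.08. Counts of list members below are to be read against those shares. Fewer genes, 2442, passed when the library was not kept as a block. The other fibroblasts kept cells with UMIs of Sox10, Pecam1 or Ptprc. Without these cells, a choice made after seeing the data, 3500 of 12889 genes passed, 1425 higher and 2075 lower. The differences of list members below are those against all other fibroblasts, these cells among them.

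Among genes that reached 50 CPM and moved the same way in every library, which was part of the rule for naming them, the highest log2 differences were of Col2a1, Cdkn2a, Col9a2 and Col26a1. Col2a1, the main collagen of cartilage (chromosome 15, 97975602 to 98004695, minus strand), was at 33.7, 54.7 and 64.7 CPM in endoneurial cells and at 1.39, 1.32 and 1.26 CPM in other fibroblasts, a log2 difference of 5.28 ± 0.32 (edgeR adjusted p = 3.1e-15). Col9a2, a chain of the fibril-associated collagen IX (chromosome 4, 121039385 to 121055322, plus strand), was at 137, 87.9 and 115 CPM against 4.90, 3.11 and 4.18 CPM, a difference of 4.85 ± 0.20. Col26a1, at 78.0, 82.1 and 89.8 CPM, differed by 4.73 ± 0.26, although the annotation places Gm20485 on the same strand over it and their reads may not be separable. The endoneurial libraries lay above the others for all 3 collagens without overlap. Cdkn2a, the locus of the cell cycle inhibitor p16 and of Arf, next to the rule gene Cdkn2b on chromosome 4 (89274471 to 89294653, minus strand), was at 160, 221 and 273 CPM against 8.65, 4.90 and 9.47 CPM, a difference of 4.90 ± 0.18.

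Of the other 8 named genes 4 encode secreted proteins. Angptl7, an angiopoietin-like secreted glycoprotein (chromosome 4, 148495183 to 148500460, minus strand), reached 7270, 6293 and 5135 CPM in endoneurial cells, against 348, 234 and 246 CPM in other fibroblasts, a log2 difference of 4.56 ± 0.07 (edgeR adjusted p = 3.0e-31). Apod, the lipid-binding apolipoprotein D (chromosome 16, 31296192 to 31314808, minus strand), reached 34558, 32001 and 24561 CPM against 2439, 1780 and 1802 CPM, a difference of 3.97 ± 0.06. Both were highest in replicate 1 and lowest in replicate 3 of the endoneurial cells, and no library of the 2 groups overlapped. The protease inhibitors A2m, at 61.1, 76.2 and 144 CPM, and Cst6, at 314, 373 and 259 CPM, were higher by 4.60 ± 0.25 and 4.38 ± 0.13.

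Ngfr, the low-affinity neurotrophin receptor p75 (chromosome 11, 95568818 to 95587735, minus strand), was at 158, 162 and 119 CPM in endoneurial cells and at 7.14, 5.38 and 7.42 CPM in the others, a log2 difference of 4.53 ± 0.19 (edgeR adjusted p = 1.9e-19). Foxs1, a forkhead transcription factor known from neural crest derivatives, was at 375, 328 and 188 CPM, higher by 4.26 ± 0.12. Nrxn2, a neurexin adhesion molecule, was at 82.2, 82.1 and 91.8 CPM, higher by 4.11 ± 0.22, and the unnamed transcript 6030408B16Rik, at 228, 252 and 217 CPM, was higher by 4.55 ± 0.15.

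**Figure D1:**
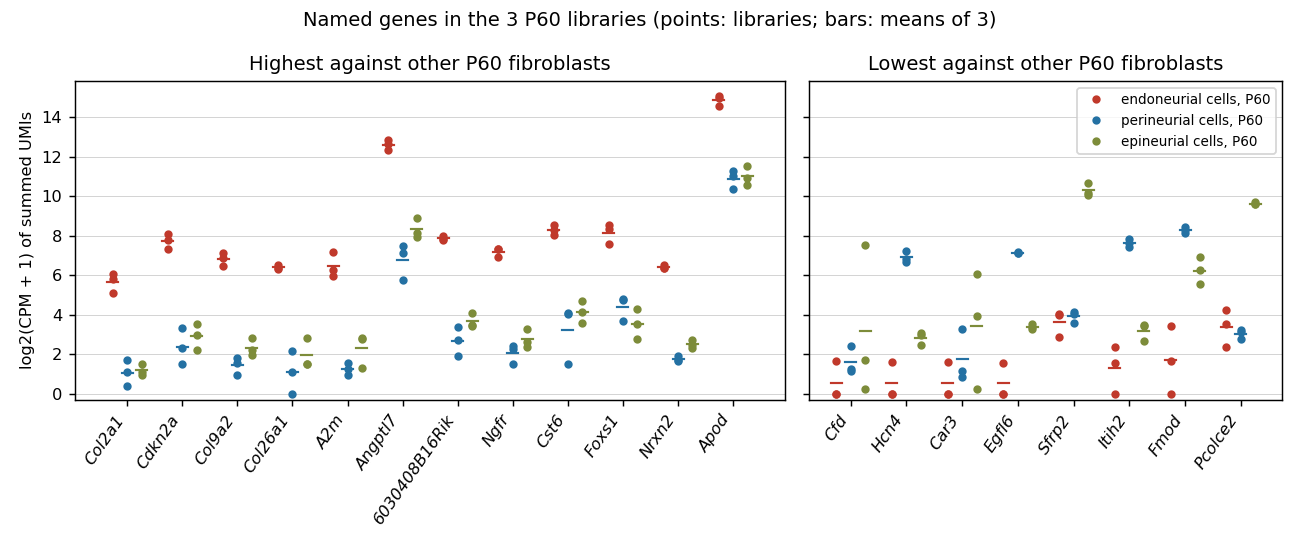
Level of the 12 genes named as higher in endoneurial cells, as log2(CPM + 1) of UMIs summed per library; points are the 3 P60 libraries of each cell group and bars their means. The endoneurial points of Col2a1, Angptl7 and Apod lie above those of the perineurial and epineurial cells.

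These RNAs were spread over the cells to different degrees. A UMI of Apod was found in 99.0% of the 413 endoneurial cells, of Angptl7 in 64.4%, of Cst6 in 48.4%, of Cdkn2a in 38.5% and of Col2a1 in 14.5%. After thinning to 2000 UMIs, which kept 365 cells, the shares were 98.1, 62.5, 39.7, 31.5 and 9.86%. Immune cells were taken as a gauge of free RNA, though whether they make these RNAs themselves was not tested. They had a UMI of Apod in 31.7% of 356 cells (16.1% of 341 thinned), Angptl7 in 3.09% (1.17%) and Cst6 in 0.562% (0). Cdkn2a was found in 0.843% (0.293%) and Col2a1 in none, which allows a share of up to 0.843% for counting error. Their median depths were 4825, 4273 and 4681 UMIs. The immune cells were limited to those with fewer than 5 UMIs of Col1a2 and Dcn together, which leaves out droplets rich in fibroblast RNA. This background is therefore a low one. The endoneurial shares were higher for each of the 5, and the part of free RNA in them was not tested. In epineurial cells the thinned shares were 57.9% for Apod and 11.6% for Angptl7.

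RefSeq promoter sequence (build GRCm38.p6) was found for 5 of those 12 genes, Cdkn2a, Col9a2, Angptl7, Ngfr and Apod. Since rule gene Sox9 belongs to the SOX family, the 250 bases before each start were searched on both strands for 2 common SOX-family letter strings, ACAAAG and ACAATG. They are shown for the 2 genes of the highest CPM among them, Apod (chromosome 16, 31314809 to 31315058) and Angptl7 (chromosome 4, 148500463 to 148500712), both read 5′ to 3′ on the minus strand, with the match in capitals.
Apod: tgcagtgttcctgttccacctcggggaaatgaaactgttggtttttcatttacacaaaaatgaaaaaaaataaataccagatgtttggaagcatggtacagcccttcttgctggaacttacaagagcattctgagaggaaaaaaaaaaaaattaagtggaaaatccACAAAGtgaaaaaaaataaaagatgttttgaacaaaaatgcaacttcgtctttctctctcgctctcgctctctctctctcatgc
Angptl7: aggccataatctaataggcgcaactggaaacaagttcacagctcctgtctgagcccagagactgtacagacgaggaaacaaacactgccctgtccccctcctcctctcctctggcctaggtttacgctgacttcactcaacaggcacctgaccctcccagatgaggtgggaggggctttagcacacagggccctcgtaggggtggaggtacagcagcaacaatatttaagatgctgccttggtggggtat
Apod held ACAAAG once, and the other 4 promoters, Angptl7 among them, held neither string. Of 27025 promoters of this length in the table, 6887 (25.5%) held at least one.

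Named as lowest in endoneurial cells were 8 genes, for which moving the same way in every library was again part of the rule. Sfrp2, a secreted Wnt regulator, was at 6.32, 15.6 and 14.6 CPM in endoneurial cells and at 675, 557 and 824 CPM in other fibroblasts, a log2 difference of -5.75 ± 0.16 (edgeR adjusted p = 3.1e-24). The collagen-binding proteoglycan Fmod was at 2.11, 9.77 and 0 CPM against 175, 185 and 136 CPM (-5.29 ± 0.30), and Pcolce2, an enhancer of procollagen processing, at 10.5, 17.6 and 4.17 CPM against 455, 422 and 417 CPM (-5.25 ± 0.19). None of the 3 overlapped between groups. Another 5 had 1 to 3 UMIs in all endoneurial cells, where only a ratio with its counting interval is meaningful. The pacemaker channel gene Hcn4 was 96.2-fold lower (exact 95% interval 17.2 to 3800), the secreted Egfl6 82.5-fold lower (14.8 to 3261) and Itih2, a hyaluronan-binding heavy chain, 43.8-fold lower (15.0 to 213). Cfd, the complement factor adipsin, and Car3, a carbonic anhydrase, both abundant in fat cells, were 116-fold (20.9 to 4595) and 98.4-fold (17.6 to 3887) lower. Their levels in the other fibroblasts depended on the library, at 181, 42.8 and 1.74 CPM for Cfd and 95.1, 85.6 and 3.00 CPM for Car3, and the fitted log2 difference of Cfd was -2.58 without the 5% of cells with the most UMIs, where its call was lost (edgeR adjusted p = 0.073). The call was also lost without the library block (adjusted p = 0.078).

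Split by sheath, 4015 of 9651 genes (41.6%) differed from perineurial cells, 1883 higher (19.5%) and 2132 lower (22.1%), and 3240 of 11322 (28.6%) differed from epineurial cells, 1522 higher (13.4%) and 1718 lower (15.2%). Median log2 differences of all genes were -0.04 in both. Without the library block the epineurial count was 2123. Of 9404 genes tested in both, 868 (9.23%) were higher in endoneurial cells than in either sheath and 594 (6.32%) lower than in either. Another 244 (2.59%) were above perineurial and below epineurial cells, and 189 (2.01%) the reverse. Both comparisons share the endoneurial libraries.

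Against perineurial cells the widest gaps were Dlk1, Col15a1, Enpp2, Lum and Cyp26b1. Dlk1, an imprinted EGF-repeat protein of immature mesenchymal cells, was at 116, 125 and 98.1 CPM in endoneurial cells and at 1.95, 0.675 and 0.922 CPM in perineurial cells, a log2 difference of 6.71 ± 0.29 (edgeR adjusted p = 5.4e-17). Lum, a fibril-organising proteoglycan, was at 10813, 11577 and 8584 CPM against 210, 172 and 56.8 CPM (6.34 ± 0.16). Col15a1, a basement membrane collagen, was at 1534, 1338 and 2104 CPM against 21.9, 19.6 and 10.4 CPM (6.63 ± 0.16). Enpp2, the lysophosphatidic acid-producing enzyme autotaxin, differed by 6.39 ± 0.18 and Cyp26b1, which degrades retinoic acid, by 6.16 ± 0.31. All 5 stood higher in every endoneurial library, which was part of the rule for naming them.

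Among the genes of perineurial cells, 5 had no UMI in any of the 413 endoneurial cells, which sets a floor of 3 UMIs over the group. Npnt, a basement membrane ligand of integrins, was at least 55.2-fold lower than in perineurial cells, where it was at 113, 110 and 117 CPM. Mettl7b was at least 39.2-fold lower, the natriuretic peptide clearance receptor Npr3 at least 34.1-fold, the interleukin receptor subunit Il17re at least 26.4-fold and the integrin subunit Itgb7 at least 25.4-fold. Itgb7 was also at least 13.4-fold lower than in epineurial cells.

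Against epineurial cells the highest genes were Col2a1 (5.16 ± 0.34), Cdkn2a (4.90 ± 0.21), Col9a2 (4.68 ± 0.22), Foxs1 (4.65 ± 0.14) and Col26a1 (4.62 ± 0.28), all on the log2 scale. Lowest was Gm26771, a transcript without a UMI in endoneurial cells and at least 21.3-fold lower, at 20.5, 21.6 and 110 CPM in epineurial cells. It lies on the other strand of Sfrp2 and overlaps its end, and whether counting used the strand is not given in the sources used here. Sfrp2 itself was at 1146, 1066 and 1601 CPM in epineurial cells, a log2 difference of -6.74 ± 0.17 (edgeR adjusted p = 6.1e-28). Each of the other 3 had 1 UMI in endoneurial cells. Edn1, the vasoconstrictor peptide endothelin 1, was 87.5-fold lower (exact 95% interval 15.7 to 3458), the Wnt-induced secreted protein Wisp2 84.4-fold (15.1 to 3337) and the serine protease inhibitor Serpina3c 77.9-fold (14 to 3080).

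The collagens and other matrix genes were described list by list, first against all other fibroblasts. All 8 fibrillar collagens tested were higher in endoneurial cells (median log2 difference 1.34, against -0.08 over all genes). Of the 8, 6 were higher than in both perineurial and epineurial cells, against 9.23% of all genes. Col11a1, a minor partner of collagen II fibrils, was at 90.6, 84.0 and 111 CPM against 9.62, 9.27 and 10.7 CPM, a difference of 3.31 ± 0.19. Col1a1, the main chain of collagen I, was at 4675, 3837 and 5966 CPM against 1669, 1285 and 1999 CPM (1.60 ± 0.05; edgeR adjusted p = 5.3e-22), and Col27a1 at 21.1, 9.77 and 31.3 CPM against 6.11, 7.22 and 8.84 CPM (1.51 ± 0.35). Each lay above the other fibroblasts in every library.

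The fibril-associated and microfibrillar collagens were divided, with 7 of 15 higher and 4 lower (median 0.30). Beside Col9a2 and Col26a1, the members with the widest differences were both lower: Col14a1, a collagen of dense fibrous tissue, at 2.11, 17.6 and 45.9 CPM against 250, 220 and 278 CPM (-3.48 ± 0.23), and Col6a5, at 2.11, 1.95 and 4.17 CPM against 22.6, 33.9 and 36.4 CPM (-3.46 ± 0.44). Of 24 basement membrane genes 9 were higher and 7 lower (median -0.14). Col15a1 was higher by 3.87 ± 0.07, while Npnt was at least 21.4-fold lower and the laminin subunit Lamb3, with 3 UMIs, was 6.18-fold lower (exact 95% interval 2.11 to 30.1).

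Of 22 proteoglycans 10 were higher and 10 lower (median 0.12). Lum was higher by 3.74 ± 0.07, and Aspn, a relative of decorin, was at 31.6, 31.3 and 31.3 CPM against 622, 605 and 510 CPM (-4.15 ± 0.13). Prg4, the joint lubricant lubricin, had 2 UMIs and was 19.7-fold lower (exact 95% interval 5.44 to 163). Of 21 genes of elastic fibres 4 were higher and 10 lower (median -0.60), and none was higher than in both sheaths. The crosslinking enzyme Lox was at 4.22, 3.91 and 4.17 CPM against 87.0, 81.3 and 88.7 CPM (-4.33 ± 0.31). The microfibril and elastic fibre proteins Mfap4, Emilin2 and Fbln1 differed by -4.06 ± 0.23, -3.41 ± 0.22 and -3.05 ± 0.16. All 4 were lower in every endoneurial library. The elastic fibre list differed by sheath. Against perineurial cells 9 of 19 genes were higher and 4 lower (median 0.62), and against epineurial cells 1 of 20 was higher and 15 lower (median -0.96).

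**Figure D2:**
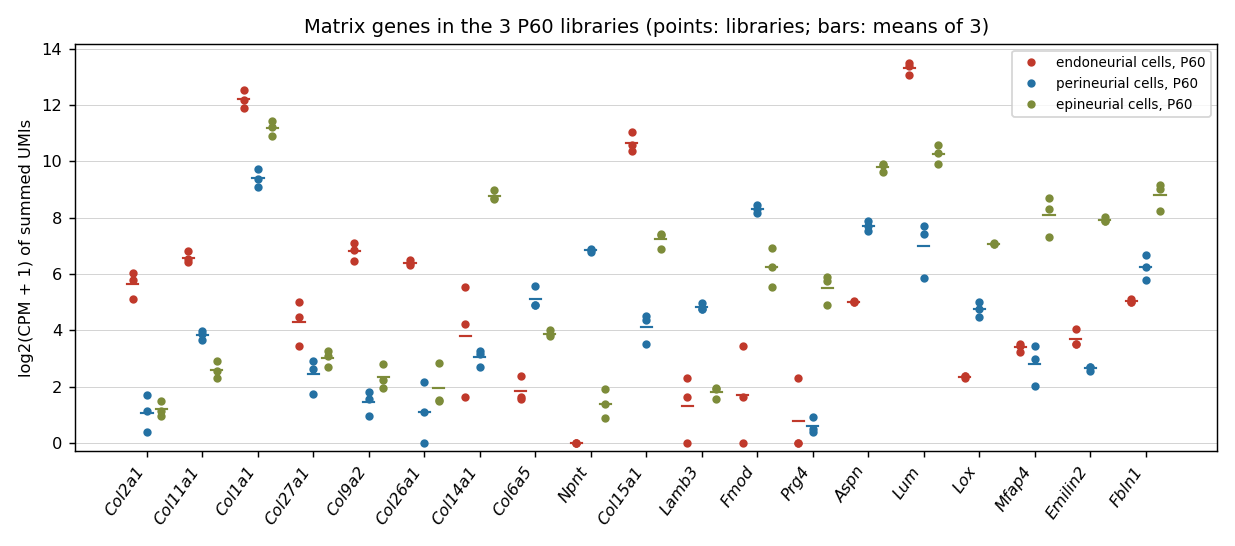
Matrix genes in endoneurial, perineurial and epineurial cells, as log2(CPM + 1) of summed UMIs; 3 or 4 members with the widest called differences of each of 5 matrix lists are shown, points are the P60 libraries and bars their means. Col2a1, Col11a1 and Lum stand highest in endoneurial cells, and Aspn, Lox and Fbln1 stand lowest there.

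Of 21 matricellular proteins, which act as signals within the matrix, 6 were higher and 10 lower (median -0.80). Postn, which encodes periostin, was at 10.5, 37.1 and 20.9 CPM against 430, 446 and 508 CPM (-4.27 ± 0.17), Cyr61 at 8.43, 25.4 and 18.8 CPM against 244, 258 and 215 CPM (-3.71 ± 0.19), and Ctgf differed by -3.20 ± 0.37. Wisp2, with 1 UMI, was 49.5-fold lower (exact 95% interval 8.87 to 1957). Proteases and inhibitors were balanced, with 12 of 33 higher and 10 lower (median 0.04). Mmp3, or stromelysin, was at 0, 1.95 and 6.26 CPM against 110, 106 and 97.1 CPM (-5.20 ± 0.35), Timp4 with 2 UMIs was 10.8-fold lower (2.97 to 89.1), and Cpz was at least 2.00-fold lower.

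**Figure D3:**
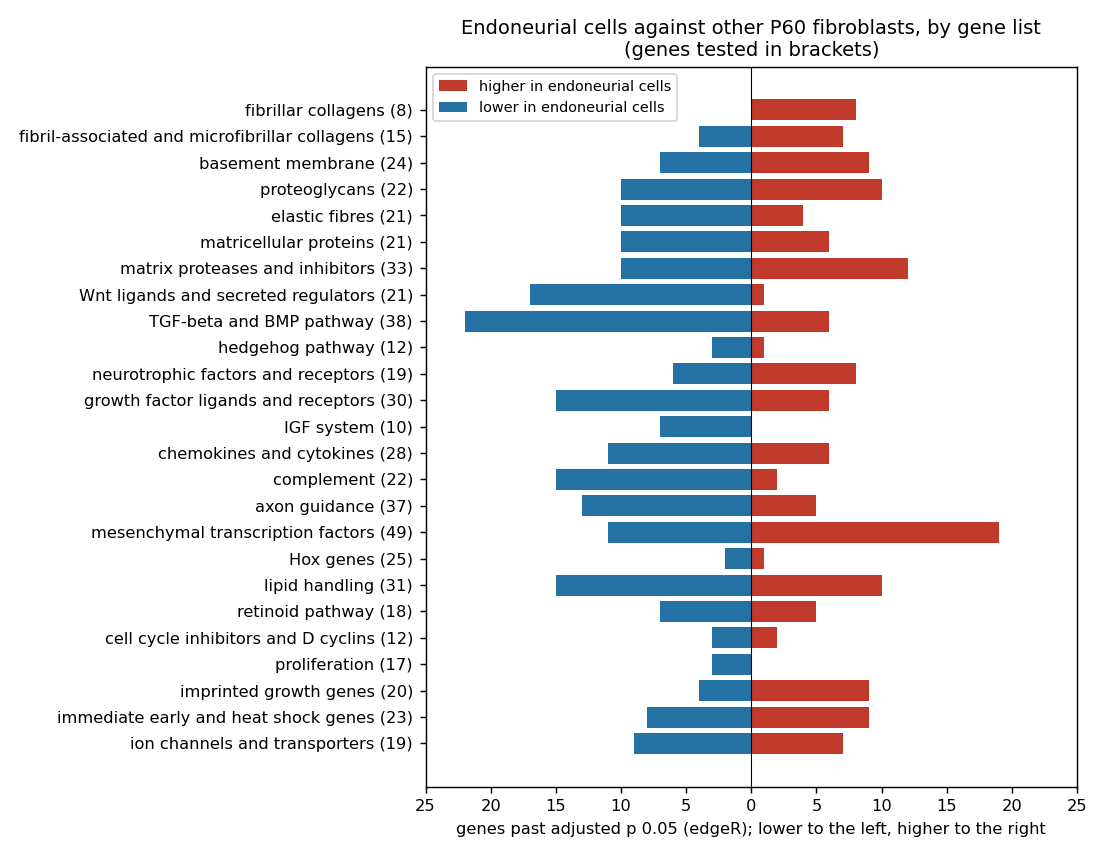
Number of list members called higher (right) or lower (left) in endoneurial cells than in other P60 fibroblasts at an adjusted p of 0.05. All 8 fibrillar collagens are on the right, and 17 of 21 Wnt genes are on the left.

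Of 21 genes of Wnt ligands and their regulators 17 were lower and 1 higher (median -3.12, or -3.10 with genes at 0 UMIs set to their bounds), against 16.5% of all genes lower. Sfrp2 is given above. Sfrp5, a related secreted inhibitor, was at 116, 162 and 58.4 CPM against 3205, 4189 and 2456 CPM (-4.83 ± 0.09), and Rspo1, a Wnt agonist, was at 2.11, 0 and 6.26 CPM against 88.4, 113 and 115 CPM (-5.22 ± 0.35). Lef1, a transcription factor of the pathway, was at least 3.63-fold lower. The 1 gene that was higher, Nkd2, an intracellular inhibitor of the pathway named for being the exception, was at 27.4, 27.4 and 18.8 CPM against 4.05, 4.11 and 2.84 CPM (2.79 ± 0.35). Sfrp5 did not differ from epineurial cells past the threshold (0.20 ± 0.13; edgeR adjusted p = 0.28). Against perineurial cells 9 of 15 genes of the list were lower and 4 higher, and against epineurial cells 11 of 19 were lower and 3 higher. Of the 14 tested against both, 4 were lower than in either, against 6.32% of all genes. Nkd1 and Nkd2 were higher than in either.

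Of 38 genes of the TGF-beta and BMP pathway 6 were higher and 22 lower (median -1.25, or -1.03 with bounds). Inhbb, an activin subunit, was at least 6.71-fold lower, the BMP antagonist Nog at least 1.52-fold, and the receptor Bmpr1b at least 1.98-fold. The ligands went the other way in part. Bmp5 and Bmp7, picked after their values were seen, were at 97.0, 89.9 and 180 CPM against 8.65, 6.01 and 17.6 CPM (3.59 ± 0.18) and at 116, 78.2 and 100 CPM against 17.4, 15.0 and 15.9 CPM (2.65 ± 0.17). Of 12 hedgehog genes 3 were lower, the co-receptors Cdon (-4.19 ± 0.40), Boc (-3.36 ± 0.40) and Gas1 (-3.29 ± 0.13), and these 3 were lower than in both sheaths. Ptch1, the receptor and a target of the pathway, was at 181, 250 and 342 CPM in endoneurial cells. It was higher than in other fibroblasts (0.43 ± 0.10), higher than in epineurial cells (2.96 ± 0.13) and lower than in perineurial cells (-1.15 ± 0.10).

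Neurotrophic factors and receptors had 8 of 19 higher and 6 lower (median 0.39), and 6 of the 12 tested in both comparisons were higher than in either sheath, against 9.23% of all genes. Ngfr, Gfra1, Ret, Gfra2 and Mdk were among these. Gfra1, the GDNF co-receptor, was at 213, 135 and 194 CPM against 12.4, 11.9 and 20.1 CPM in other fibroblasts (3.67 ± 0.16; edgeR adjusted p = 3.2e-19). Ret, the receptor kinase that pairs with it, was at 21.1, 11.7 and 27.1 CPM against 2.60, 2.21 and 2.92 CPM (2.98 ± 0.40). The receptors Ngfr, Gfra1 and Ret were thus all present in the summed RNA, which does not tell whether the same cells carried them. Cntfr, the CNTF receptor, was lower (-3.19 ± 0.26), and the ligand Nrtn at least 2.06-fold lower.

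Among other growth factors and their receptors 6 of 30 were higher and 15 lower (median -1.29, or -1.09 with bounds). Beside Angptl7, the widest differences were of Fgf9, at least 6.41-fold lower, Pdgfb, with 1 UMI and 15.5-fold lower (exact 95% interval 2.78 to 615), and Vegfd, at 4.22, 9.77 and 6.26 CPM against 96.9, 92.6 and 75.6 CPM (-3.64 ± 0.28). The Pdgfb level compared is that of all other fibroblasts, cells with UMIs of Pecam1 among them. No gene of the 10 of the IGF system was higher and 7 were lower (median -0.67), among them the IGF-binding proteins Igfbp3 (-4.09 ± 0.24), Igfbp6 (-1.89 ± 0.08), Igfbp4 (-1.05 ± 0.08) and Igfbp7 (-0.75 ± 0.06). Igfbp6 was still at 2437, 2368 and 1361 CPM in endoneurial cells. Against perineurial cells 2 of 8 genes of the list were higher and 2 lower (median 0.24). Against epineurial cells 1 of 9 was higher and 7 lower (median -0.88). Of the 8 tested against both sheaths, only Igfbp6 was lower than in either, and none was higher.

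Chemokines and cytokines had 6 of 28 higher and 11 lower (median -0.54). Of the 15 tested against both sheaths, 7 were higher than in either, against 9.23% of all genes, and 2 lower, against 6.32%. The monocyte-attracting chemokines Ccl7, at 394, 600 and 536 CPM against 57.1, 36.2 and 56.3 CPM, and Ccl2, at 312, 680 and 975 CPM against 72.4, 45.7 and 71.9 CPM, were higher by 3.43 ± 0.14 and 3.37 ± 0.17. The B cell chemokine Cxcl13 was at 4.22, 1.95 and 31.3 CPM against 217, 209 and 300 CPM (-4.27 ± 0.24), with replicate 3 above the other endoneurial libraries, and the decoy receptor Tnfrsf11b had 1 UMI and was 19.1-fold lower (exact 95% interval 3.42 to 756). Of 22 complement genes 2 were higher and 15 lower (median -1.93), and 7 of the 14 tested against both sheaths were lower than in either, against 6.32% of all genes. Cfb, with 2 UMIs, was 20.1-fold lower (exact 95% interval 5.55 to 166).

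Of 49 mesenchymal transcription factors 19 were higher and 11 lower (median 0.11). Beside Foxs1, Sox8, a close relative of Sox9, was at 71.7, 74.2 and 35.5 CPM against 5.14, 4.37 and 4.10 CPM (3.80 ± 0.26), and Etv4, a target of FGF and GDNF signals, at 44.3, 44.9 and 31.3 CPM against 5.68, 7.27 and 5.76 CPM (2.74 ± 0.28). The hindlimb factor Pitx1 was at least 3.37-fold lower. Among 25 Hox genes, which record position along the body, 1 was higher, Hoxa7 (0.51 ± 0.18), and 2 were lower, Hoxa10 (-0.62 ± 0.17) and Hoxb9, at least 2.00-fold. Axon guidance genes had 5 of 37 higher and 13 lower (median -0.49), with Plxna4, Slit2 and Unc5c at least 3.36-fold, 2.12-fold and 1.85-fold lower and Ephb2, with 2 UMIs, 14.4-fold lower (exact 95% interval 3.97 to 119).

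Lipid handling genes had 10 of 31 higher and 15 lower (median -0.52), and 8 of the 24 tested against both sheaths were higher than in either, against 9.23% of all genes. These were Apod, Enpp2, Abca6, Abca9, Abca8a, Abca8b, Pltp and Ptges. The prostaglandin enzymes Ptgs2 and Ptgis were lower, at least 5.83-fold and by -3.94 ± 0.27 on the log2 scale, as was the fatty acid carrier Fabp3, at least 3.07-fold. Of 18 retinoid genes 5 were higher and 7 lower (median -0.89), with Rarres1 (3.03 ± 0.28) and Cyp26b1 (2.87 ± 0.22) at one end and the retinoid carrier Crabp2 (-2.50 ± 0.34) at the other. Ion channels and transporters had 7 of 19 higher and 9 lower (median -0.08). The potassium channel Kcnk2 was at 276, 227 and 276 CPM against 19, 19 and 20.7 CPM (3.77 ± 0.12), and the carriers Slc16a1, Slco2a1 and Slc7a2 were lower, by -3.93 ± 0.19, -3.92 ± 0.34 and -3.33 ± 0.27.

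Of 12 cell cycle inhibitors and D cyclins 2 were higher and 3 lower (median 0.20). Beside Cdkn2a, the p53 target Cdkn1a was at 92.7, 113 and 119 CPM against 63.7, 67.6 and 66.7 CPM (0.76 ± 0.14), and Cdkn1c, which encodes p57, was lower (-0.56 ± 0.09). Of 17 proliferation genes none was higher and 3 were lower (median -1.22, or -0.70 with bounds): Rrm2 and Nusap1 at least 1.71-fold and 1.62-fold, and Top2a, with 1 UMI, 7.66-fold (exact 95% interval 1.36 to 304). Imprinted growth genes had 9 of 20 higher and 4 lower (median 0.44), led by Dlk1 (3.47 ± 0.19), Meg3 (1.5 ± 0.06), Mirg (1.48 ± 0.52) and Mest (1.43 ± 0.18). Of 23 immediate early and heat shock genes, which tissue dissociation is known to induce, 9 were higher and 8 lower (median 0.04). Of the 21 tested against both sheaths, 10 were higher than in either, against 9.23% of all genes, and 3 lower, against 6.32%. The 10 were Btg2, Jun, Fosb, Zfp36, Jund, Ier2, Junb, Egr3, Fos and Egr1, and the 3 were Hspb1, Hspa8 and Hsp90aa1. The immediate early gene Egr3 was higher by 1.68 ± 0.45. The chaperone Hspb1 (-2.66 ± 0.10), Ier3 (-1.80 ± 0.23) and Nr4a2, with 1 UMI and 15.6-fold lower (exact 95% interval 2.79 to 617), went the other way. The part of dissociation in the levels of Ccl2 and Ccl7 was not tested.

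The same rule was applied to the P1 libraries to ask how these RNAs stood in the newborn nerve. Whether the P1 cells that met it are the precursors of the adult cells cannot be told from sums. Of 11106 genes tested 4375 differed between the ages (39.4%), 2155 higher at P60 (19.4%) and 2220 lower (20.0%), with a median of -0.03. Sums at P1 rested on 1641 deeper cells. Without P1 replicate 2 or 3 there were 2903 or 2880 calls among 6499 or 6507 genes that could then be tested.

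The 12 leading genes of adult endoneurial cells split by age. Angptl7 rose from 190, 148 and 122 CPM at P1 to its adult level, a log2 difference of 5.42 ± 0.19 (edgeR adjusted p = 2.3e-12), and Apod from 2379, 2453 and 2457 CPM, a difference of 3.72 ± 0.14. Cdkn2a rose from 34.2, 32.9 and 30.2 CPM (2.82 ± 0.15). Cst6 (1.90 ± 0.14), Nrxn2 (1.77 ± 0.16), A2m (1.67 ± 0.22) and 6030408B16Rik (0.72 ± 0.13) were also higher at P60. Ngfr (-1.21 ± 0.14), Col9a2 (-1.28 ± 0.15), Col2a1 (-1.51 ± 0.17) and Col26a1 (-2.08 ± 0.13) fell. Col2a1 had been at 153, 149 and 155 CPM and Ngfr at 353, 365 and 352 CPM in the newborn cells. Foxs1 was at 287, 286 and 277 CPM at P1 and its difference did not pass the test (0.14 ± 0.18; edgeR adjusted p = 0.56).

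**Figure D4:**
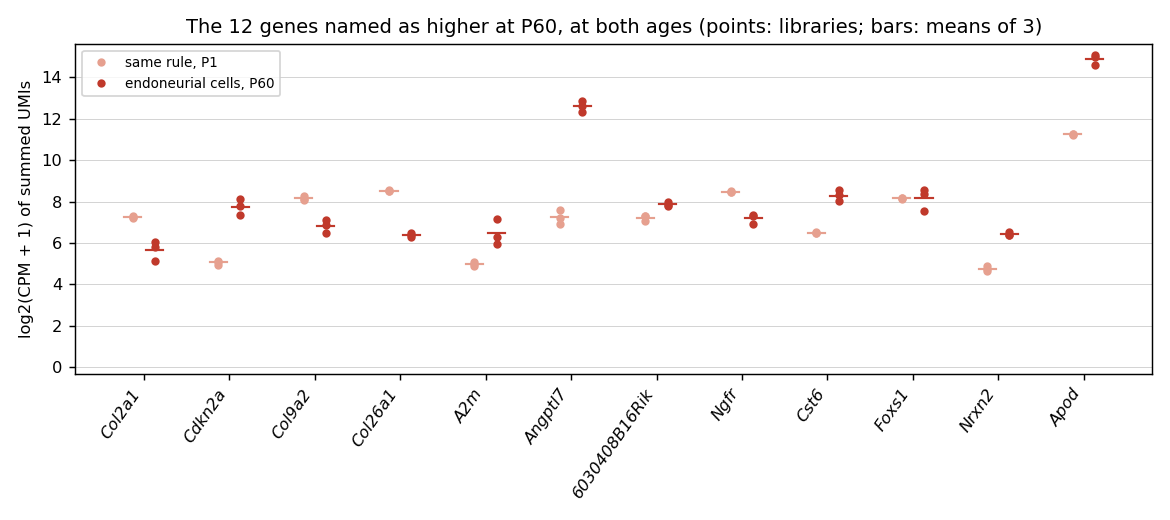
The 12 leading genes of adult endoneurial cells in the cells that met the rule at P1 and at P60, as log2(CPM + 1) of summed UMIs; points are libraries and bars their means. Angptl7, Apod and Cdkn2a stand higher at P60, and Col2a1, Col26a1 and Ngfr stand higher at P1.

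Among the 8 genes named as highest at P60, Cpxm2 had no UMI in any of the 1641 P1 cells so that P60 stood at least 1402-fold above P1. Myoc was at 0, 0 and 1.27 CPM at P1, a difference of 11.24 ± 0.46. Efemp1, or fibulin 3, rose from 1.05, 0.628 and 1.27 CPM to 550, 496 and 349 CPM (8.88 ± 0.26; edgeR adjusted p = 2.5e-13). The 2 markers that checked the label at P60 were thus absent or nearly so from the newborn cells. The complement component C3 rose from 0.210, 0.628 and 0.181 CPM to 42.2, 58.6 and 129 CPM (7.73 ± 0.50), the prostaglandin receptor Ptgfr by 7.23 ± 0.39, and Medag, with 2 UMIs at P1, was 483-fold higher (exact 95% interval 130 to 4050). Retnla was at least 398-fold higher, though immune cells of the same libraries carried 13351 to 20888 CPM of it and the part of free RNA was not tested. Ccl21a, one of several near-identical gene copies, rested on P60 replicate 2, at 498 CPM against 19 and 12.5 CPM in the other two, and its value (8.55 ± 1.18) is uncertain for both reasons.

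Lowest at P60 were genes of dividing cells. Of 20 proliferation genes 19 were lower at P60 and none higher (median -5.11). Ube2c, Cdca3, Rrm2, Cdc20 and Tk1, genes of mitosis and DNA synthesis, had no UMI in the adult endoneurial cells and were at least 39.8-fold, 34.4-fold, 30.9-fold, 29.0-fold and 25.8-fold lower. Pclaf, a replication clamp factor with 1 UMI, was 211-fold lower (exact 95% interval 37.8 to 8325). At P1 Ube2c was at 72.0, 99.4 and 74.1 CPM and Pclaf at 132, 158 and 141 CPM. The transcription factor Sox11, high in progenitors, was at least 32.2-fold lower. Hbb-bt, a globin of red blood cells, was at 110, 7.96 and 143 CPM at P1 and at 0 at P60, and its call was lost without P60 replicate 1 or 2.

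**Figure D5:**
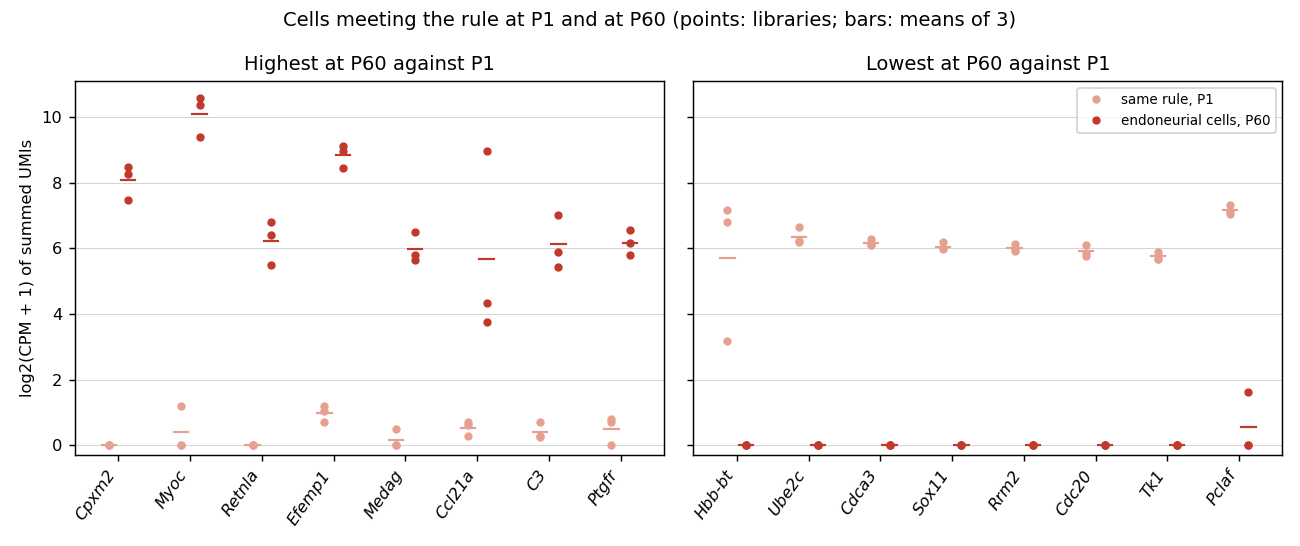
The 8 genes named as highest and the 8 as lowest at P60 against P1 in the cells that met the rule, as log2(CPM + 1) of summed UMIs; points are libraries and bars their means of 3. The higher genes lie near 0 at P1, and Ube2c, Cdc20 and Sox11 lie at 0 at P60.

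Matrix lists moved in different directions with age. Of 8 fibrillar collagens 2 were higher at P60, Col27a1 (2.26 ± 0.41) and Col5a3 (1.97 ± 0.12), and 5 were lower (median -1.05), among them Col11a1 (-1.79 ± 0.14) and Col2a1. Of 15 fibril-associated and microfibrillar collagens 1 was higher and 11 lower (median -1.28). Col9a1 and Col9a3, the partners of Col9a2 in collagen IX, had no UMI in adult endoneurial cells and were at least 9.92-fold and 10.0-fold lower than at P1, where they stood at 17.0, 17.2 and 25.8 CPM and at 21.2, 23.2 and 17.5 CPM. Of the 3 chains, adult cells had UMIs of Col9a2 alone at this depth. Of 17 basement membrane genes 10 were higher and 4 lower (median 1.02). Col15a1 rose from 94.7, 109 and 107 CPM (4.06 ± 0.15), Col4a5 by 2.42 ± 0.35 and Nid1 by 2.03 ± 0.13.

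Proteoglycans had 11 of 22 higher and 5 lower at P60 (median 0.59). Podn rose from 9.87, 10.3 and 9.40 CPM to 232, 188 and 223 CPM (4.51 ± 0.15), while Kera, the keratocan of cornea and tendon, and Hapln3, a hyaluronan link protein, had no UMI at P60 and were at least 24.2-fold and 18.2-fold lower. Of 20 elastic fibre genes 7 were higher and 8 lower (median -0.19). Fbn2, the fetal fibrillin, fell from 526, 548 and 586 CPM to 6.32, 15.6 and 25.0 CPM (-5.07 ± 0.22).

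Of 14 complement genes 9 were higher at P60 and none lower (median 2.19), the same list that was mostly lower than in other adult fibroblasts. Beside C3, C4b was at least 123-fold higher. Of 21 growth factor genes 9 were higher and none lower (median 0.19). Il34, a ligand of the macrophage receptor Csf1r, rose from 2.73, 2.72 and 1.99 CPM to 101, 137 and 37.6 CPM (5.28 ± 0.40). In the neurotrophic list 5 of 14 were higher and 6 lower (median -0.63). Gfra1 rose from 35.3, 27.8 and 27.8 CPM (2.64 ± 0.17), Gfra2 by 2.86 ± 0.21, and Ret, with 3 UMIs at P1, was 99.4-fold higher (exact 95% interval 30.8 to 510). These receptors of the GDNF family rose where Ngfr fell.

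Lipid handling genes had 15 of 26 higher and 3 lower at P60 (median 1.26), among them Enpp2 (4.98 ± 0.13) and Abca6 (3.62 ± 0.13). In the retinoid list 6 of 18 were higher and 4 lower (median 0.31), with Aldh1a1, a retinoic acid-making enzyme, rising from 1.89, 3.14 and 1.63 CPM to 120, 141 and 119 CPM (5.89 ± 0.23; edgeR adjusted p = 6.5e-12), Rbp4 by 5.15 ± 0.28 and Cyp26b1 by 4.92 ± 0.25. Of 13 Hox genes 8 were higher and none lower (median 0.84). Imprinted growth genes went down, 14 of 19 lower and 1 higher (median -1.64). Dlk1 fell from 5677, 5570 and 5474 CPM (-5.55 ± 0.14), H19 from 2076, 2056 and 1999 CPM to 90.6, 99.6 and 48.0 CPM (-4.61 ± 0.18), and Igf2 was at least 8.78-fold lower. In the IGF system 3 of 10 were higher and 5 lower (median -0.71), and Igfbp2, at 260, 261 and 256 CPM at P1, had 2 UMIs at P60 and was 190-fold lower (exact 95% interval 52.4 to 1566).

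Whether an age difference was particular to the endoneurial cells was tested as an interaction with the other fibroblasts. Of 14933 genes 3168 passed (21.2%), 1228 with a more positive (8.22%) and 1940 with a more negative (13.0%) age difference in endoneurial cells, and the median was -0.13. The balance depended on the tool, with 1275 more positive and 1202 more negative by DESeq2, and without the library block 2111 genes passed. In the main fit 4 of 20 proliferation genes were more negative and 16 did not pass, and none of 25 Hox genes passed. For Angptl7 and Apod the interaction was 0.94 ± 0.09 and 0.34 ± 0.06, and both stood higher at P60 in other fibroblasts too, in which Angptl7 went from 17.4, 11.5 and 12.4 CPM to 348, 234 and 246 CPM and Apod from 220, 210 and 219 CPM to 2439, 1780 and 1802 CPM. For Col2a1 (2.26 ± 0.27), Ngfr (2.24 ± 0.15) and Dlk1 (3.01 ± 0.13) the values fell less in endoneurial cells than in the others. Dlk1 in other fibroblasts went from 4395, 4628 and 4508 CPM to 14.3, 9.49 and 8.37 CPM. In the interaction 9 of 12 Schwann cell markers were more positive and none more negative (median 2.75), against 8.22% of all genes. These markers summed to 14006 to 14884 CPM in the other P1 fibroblasts, and the part of Schwann cell RNA was not tested. Other fibroblasts without a UMI of Sox10, Pecam1 or Ptprc, chosen after seeing the data, gave 2.21 for Col2a1 and 2.47 for Ngfr.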

How the data were processed

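Single-cell RNA of sciatic nerve was measured with the 10x Chromium 3' v2 kit in 3 libraries per age. The deposited matrices hold raw UMI counts per gene and cell that the authors made with Cell Ranger 2.0.2 on mouse GRCm38.p5, as the submitters' processing notes give it. Cells with 500 to 5000 detected genes were kept. UMIs were summed per library and cell group chosen by gene limits, since cells are not replicates. edgeR 4.0.16 (quasi-likelihood, TMM scaling, its own filter on low counts, Benjamini-Hochberg adjusted p of 0.05) was fitted over all genes in R 4.3.3, with the library as a block within P60 and in the interaction, and without one between ages. The 14 genes of the rule were left out of all counts. SE is the size of the log2 difference divided by the square root of the test's F statistic. DESeq2 1.42.0, other filters, left-out libraries and thinned cells were alternatives.

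The block rests on groups of 1 P60 library coming from the same suspension. Deviations of endoneurial and other fibroblasts of a library from their group means correlated at 0.165, 0.138 and 0.330 across genes.

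The members and gene lists were chosen with earlier results of these data known. Genes were named by rank of log2 difference among those that passed, moved the same way in every library and reached a mean of 50 CPM in the higher group (12 and 8 against other fibroblasts, 5 and 5 per sheath, 8 and 8 between ages, 4 and 4 for the interaction), plus up to 4 members per list with the largest called differences. Some list members are not reported here. Genes beyond these were picked after their values were seen. These are members of a list that were higher than both sheaths, markers of other cells called higher, the leading genes of one comparison shown in another, Nkd2, Bmp5 and Bmp7. Coordinates are from GENCODE M21, in which 41519 of 41605 gene identifiers (99.8%) were found. Bounds for genes without a UMI use 3 counts over the summed group, and ratios for 1 to 3 UMIs have exact intervals of counting error only. On simulated counts with 13350 genes, 56 of 100 genes changed by 1 and 74 of 100 changed by 2 on the log2 scale were called for endoneurial against other fibroblasts, with 11 of 13150 unchanged genes called.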

Additional observations from a re-analysis of the deposited data

Results flagged for a closer look

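Of the genes named for the interaction, 4 had a more positive age difference (P60 minus P1) in endoneurial cells than in other fibroblasts by a test of the difference itself. Cpxm2 (7.16 ± 1.12 on the log2 scale; edgeR adjusted p = 8.3e-06) and Medag, a gene of fat cell development (6.33 ± 0.47), were nearly absent from the newborn cells that met the rule. Medag stood at 0.420, 0 and 0 CPM there and at 21.0, 22.4 and 20.7 CPM in the other P1 fibroblasts.

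Gjc3, a connexin of myelinating glia (7.80 ± 0.28; edgeR adjusted p = 6.6e-21), and Aspa, the aspartoacylase of glia (6.10 ± 0.19), stood higher at P60 in every endoneurial library and lower at P60 in every library of the others. Gjc3 went from 7.56, 8.37 and 7.59 CPM to 48.5, 35.2 and 60.5 CPM in endoneurial cells and from 214, 206 and 210 CPM to 5.50, 4.16 and 6.47 CPM in other fibroblasts. Aspa went from 5.88, 5.44 and 4.88 CPM to 145, 156 and 119 CPM, and from 63.4, 61.4 and 65.7 CPM to 23.5, 21.2 and 23.4 CPM in the others. The 12 Schwann cell markers summed to 14006 to 14884 CPM in the other P1 fibroblasts and to 694 to 737 CPM in the P1 cells that met the rule. When the other fibroblasts were limited to cells without a UMI of Sox10, Pecam1 or Ptprc, a choice made after seeing the data, the other fibroblasts stood at a mean of 86.4 CPM at P1 and 3.94 CPM at P60 for Gjc3 and at 28.8 and 21.3 CPM for Aspa. The interaction values were then 7.03 for Gjc3, 5.12 for Aspa, 7.05 for Cpxm2 and 6.78 for Medag, and all 4 passed.

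More negative in endoneurial cells were the fitted values of Cdc20 (-8.63 ± 2.24), Sox11 (-8.48 ± 2.26), Ube2c (-8.35 ± 2.80) and Rrm2 (-8.12 ± 2.30). None of the 4 had a UMI in adult endoneurial cells, so these sizes depend on the fit and are no bounds. In other P60 fibroblasts they stood at 8.71, 5.74 and 6.71 CPM for Cdc20, 1.69, 1.37 and 1.5 CPM for Sox11, 5.08, 4.69 and 3.95 CPM for Ube2c and 4.66, 3.32 and 2.29 CPM for Rrm2. The floor of 3 UMIs is 2.05 CPM in the adult endoneurial sum, above all 3 values of Sox11. The calls on Ube2c and Rrm2 were lost without P60 replicate 1 (edgeR adjusted p = 0.098 and 0.086) or 2 (0.14 and 0.060), and that on Ube2c also without P60 replicate 3 (0.064). All 4 calls were lost when cells were thinned to 2000 UMIs (adjusted p = 0.093 for Cdc20, 0.0996 for Sox11, 0.20 for Ube2c and 0.25 for Rrm2), that on Ube2c also without the 5% of cells with the most UMIs (0.23) and that on Rrm2 also without the library block (0.059).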

How the results depend on the processing

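Counts of genes that passed fell under some alternatives. DESeq2 called 2431 against other fibroblasts, 2501 against perineurial and 2023 against epineurial cells. Cells thinned to 2000 UMIs gave 2515 against perineurial and 2147 against epineurial cells, 2384 between ages and 1821 for the interaction. Without the replicate block 2442 genes differed from other fibroblasts, 2123 from epineurial cells and 2111 in the interaction. Leaving out each library in turn between ages gave 2880 to 4097, the lowest of these without a P1 library, when 6499 to 6507 genes in place of 11106 could be tested. The mean share of P60 fibroblasts was 3.61% with at least 3 UMIs of the 4 genes, a limit tried after seeing the data. Replicate numbers did not pair the ages, with correlations of 0.00431, 0.0326 and 0.0499 between same-numbered libraries across genes. Each P1 library correlated best with its own number and P60 replicate 1 did not, a hint from the data and not the design. With the replicate block 4067 genes differed between ages. Of 1083 values of named genes under the alternatives, 1063 kept direction and side of the threshold, 18 lost the call, 2 gained it and none reversed. The losses were of Cfd, Hbb-bt, the 4 interaction genes without adult UMIs, Myoc and Cd34, and the gains of Myoc against epineurial cells, without P60 replicate 1 or without a filter on low counts (-0.31). The 413 cells limit what low genes can show, since 3 UMIs over all of them are 2.05 CPM.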
